A study of Mus musculus with 30 samples.

Results

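Klf9 and Hr, 2 genes known as direct targets of thyroid hormone, were followed in mouse bone marrow-derived macrophages, in which RNA sequencing of polyA-selected RNA counted reads in 55414 genes. They were chosen by name and matched to their Ensembl identifiers, ENSMUSG00000033863 for Klf9 and ENSMUSG00000022096 for Hr, and both were among the 15686 genes with enough reads to be tested. Klf9 lies on the plus strand of chromosome 19 and Hr on the plus strand of chromosome 14. The cells came from mice with TRα1PV, a mutation of thyroid hormone receptor α1, and from wild-type (WT) mice. The labels state neither zygosity nor age nor sex of the animals. Bone marrow was grown for 7 days in serum-containing medium with 15 or 20% L929-conditioned medium, which supplies a macrophage growth factor. Cells of each genotype then received lipopolysaccharide (LPS) and interferon-γ, both at 20 ng/mL, for the M1 state, or interleukin-4 at 20 ng/mL for the M2 state, or no stimulus for the M0 state. Each of the 6 groups held 5 libraries, numbered 1 to 5 as biological replicates, 30 in all. The labels describe no added T3 in any group and give no length of stimulation.

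Thyroid hormone in its active form, T3, acts through nuclear receptors that sit on DNA with retinoid X receptors. Without T3 these receptors hold corepressors and keep target genes low, and with T3 they exchange them for coactivators. The PV mutant is known not to bind T3 and to act against the normal receptor in a dominant-negative manner. Klf9 encodes a Krüppel-like zinc finger factor that binds GC-rich DNA and recruits the SIN3A corepressor. It is induced by T3 and by glucocorticoids in several tissues, the brain being the best studied. Hr encodes hairless, a nuclear corepressor with a JmjC domain that binds thyroid hormone receptors, the vitamin D receptor and ROR receptors. It is known for its role in the hair cycle in skin and for its induction by T3 in the developing rodent brain.

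The start of Klf9 is shown because the promoter set used had no entry for Hr. Klf9 responded to interleukin-4, whose signal reaches DNA through STAT6. The window runs from 250 bases before to 50 bases after the start of the RefSeq transcript, at chr19:23140976-23141275 on the plus strand of GRCm38.p6, a different build from the one the counts were made on. Capitals mark a match to TTCNNNGAA, the palindrome that STAT factors bind.

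Klf9 promoter: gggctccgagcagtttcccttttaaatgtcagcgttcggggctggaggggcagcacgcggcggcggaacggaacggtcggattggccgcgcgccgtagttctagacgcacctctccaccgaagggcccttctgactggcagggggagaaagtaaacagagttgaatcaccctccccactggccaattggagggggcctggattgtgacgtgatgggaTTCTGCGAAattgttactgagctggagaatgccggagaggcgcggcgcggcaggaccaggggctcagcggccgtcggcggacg

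The window had a GC content of 63.3%, against a median of 52.7% over the 32851 RefSeq mouse promoters of the same length. The STAT motif began at base 218 of the window, and 8.30% of those promoters held it on either strand. No match was found to the STAT6 site TTCNNNNGAA, which has a wider spacing than the marked motif (6.95% of promoters). The thyroid hormone receptor half-site AGGTCA (16.3% of promoters), its direct repeat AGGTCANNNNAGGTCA (0.0152%), the glucocorticoid receptor element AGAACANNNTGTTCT (0.00913%) and the GC box GGGCGG (35.7%) were not matched either. The half-site is contained in the direct repeat, and all motifs were searched on both strands. These letters describe this window and are not evidence of binding or its absence.

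Libraries held 23015952 to 59086252 reads in genes, and levels are given in CPM, read counts brought to a common library size with TMM factors. The share of reads outside genes was 8.66 to 14.4% and that in mitochondrially encoded genes 0.485 to 4.56%, the highest of these in WT M0 replicate 2. All 9 macrophage markers had reads in every group, and the markers of the M1 and M2 states were highest in the libraries so labelled. Fibroblast and stroma markers were scarce but differed between the genotypes, as given beside Klf9. Of 7 markers of keratinocytes and hair follicles, the skin cells in which Hr is best known, Krt5, Krt14, Krt15 and Krt1 had no reads in any group and Sox9 had none in 4 of the 6 groups. The other members, Krt10 and Lhx2, brought the summed level to 17.8 to 27.3 CPM in TRα1PV M1 and 13.4 to 19.1 CPM in WT M1, against at most 1.64 CPM in any M0 or M2 library. Lhx2, a transcription factor gene, was the member called higher with M1 in both genotypes and in TRα1PV M1 against WT M1 (0.54 ± 0.17, edgeR adjusted p = 0.0200). No pair of libraries within a group agreed within counting noise. The labels call the replicates biological without saying whether they came from separate animals or cultures, so p-values measure the spread between these libraries.

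Klf9 was lower in TRα1PV than in WT macrophages in every state. In M0 its level was 1.33, 0.812, 0.930, 1.19 and 1.19 CPM in TRα1PV replicates 1 to 5, against 14.4, 16.9, 14.4, 14.4 and 16.8 CPM in the WT replicates. The groups lay far apart, with means of 1.09 ± 0.213 CPM in TRα1PV and 15.4 ± 1.35 CPM in WT (SD, n = 5 each). In M1 the TRα1PV libraries held 0.538, 0.629, 0.787, 0.793 and 0.988 CPM, against 25.3, 22.4, 29.7, 36.7 and 23.5 CPM in WT. This was the widest gap of the 3 states: the mean was 0.747 ± 0.173 CPM in TRα1PV and 27.5 ± 5.83 CPM in WT, a level 36.9-fold lower in TRα1PV. In M2 the TRα1PV libraries held 14.6, 17.3, 14.1, 13.8 and 11.5 CPM, against 66.4, 74.3, 69.6, 82.0 and 60.0 CPM in WT. Both genotypes had their highest Klf9 level here, with means of 14.3 ± 2.05 CPM in TRα1PV and 70.4 ± 8.30 CPM in WT, and the groups again did not overlap.

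The tests of Klf9 between genotypes passed in all 3 states. The log2 fold change of TRα1PV over WT was -3.81 ± 0.15 in M0 (edgeR adjusted p = 1.09e-17), where Klf9 ranked 2 by p among the 15686 genes tested. It was -5.19 ± 0.17 in M1 (adjusted p = 1.16e-19), where Klf9 ranked 1 and only 4 of the tested genes, itself included, had a log2 fold change as low. In M2 it was -2.31 ± 0.12 (adjusted p = 2.93e-14), rank 3, and averaged over the states it was -3.77 ± 0.09 (adjusted p = 3.91e-24), rank 1. The ± values are standard errors derived from the F statistic of the fit. For comparison, 14.0% of all tested genes were called lower in TRα1PV in M0, 10.2% in M1, 6.96% in M2 and 14.6% over all states. Between same-numbered libraries the log2 difference lay between -4.38 and -3.43 in M0, between -5.56 and -4.57 in M1 and between -2.57 and -2.11 in M2. The groups did not overlap in any state, which was so in this direction for 6.90% of tested genes in M0, 5.91% in M1 and 7.87% in M2.

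The lowest Klf9 level still rested on reads in every library. The TRα1PV M1 libraries held 15 to 32 Klf9 reads each and 106 in all (95% exact Poisson interval 86.8 to 128), against 596 to 1039 reads per WT M1 library. The spread among TRα1PV M1 libraries was a coefficient of variation of 23.1%, close to the 21.7% that counting error alone would give. In WT M1 it was 21.2%, against 3.61% from counting, so the WT libraries varied by more than counting error. Such intervals cover counting error only.

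Markers of fibroblasts and stroma, cells that also express Klf9, moved with the genotype. Their summed level over 10 genes was 1.37 to 2.86 CPM in TRα1PV M0 and 7.17 to 25.6 CPM in WT M0, with Lum at 0 in WT M0. In M1 it was 2.12 to 3.30 CPM in TRα1PV and 4.99 to 6.82 CPM in WT, with Pdgfra at 0 in both, and in M2 it was 3.44 to 6.29 CPM in TRα1PV and 5.29 to 16.8 CPM in WT, with Lum at 0 in both. Of the 8 tested, 8 were called lower in TRα1PV in M0, 5 in M1 and 6 in M2, with 1 higher in M2. Over all tested genes, 14.0%, 10.2% and 6.96% were called lower in these states, and 6.14% higher in M2. In each TRα1PV group and in WT M1, 9 of the 10 markers averaged under 1 CPM, against 5 in WT M0 and 4 in WT M2. Markers that passed the filter on low counts only through WT libraries are more readily called lower. The stroma counts are therefore not fully comparable with these shares. Klf9 itself stood at 27.5 ± 5.83 CPM in WT M1, where the sum of all 10 markers was at most 6.82 CPM. In WT M0, Klf9 stood at 15.4 ± 1.35 CPM and the marker sum reached 25.6 CPM. In WT M2, Klf9 stood at 70.4 ± 8.30 CPM and the marker sum reached 16.8 CPM. Markers of granulocytes ran the other way. In M0 they were at 178 to 365 CPM in TRα1PV and 48.4 to 210 CPM in WT over 11 genes, with 9 of 9 tested called higher in TRα1PV. They did so without overlap in M2, at 98.4 to 228 CPM in TRα1PV and 28.6 to 92.8 CPM in WT with 6 of 9 called higher. In M1 they were at 5.68 to 11.3 CPM in TRα1PV and 3.48 to 5.29 CPM in WT, with 1 of 9 called higher and Elane and Retnlg at 0 in both. The shares of all tested genes called higher were 12.0% in M0, 9.74% in M1 and 6.14% in M2. The granulocyte count in M1 thus lay near the background. Inflammatory monocyte markers, 6 genes, stood at 1088 to 1368 CPM in TRα1PV M0 and 508 to 625 CPM in WT M0. In M1 they stood at 358 to 466 CPM in TRα1PV and 261 to 352 CPM in WT. They overlapped in M2, at 1740 to 2793 CPM in TRα1PV and 1878 to 2378 CPM in WT. In TRα1PV, 5 were called higher and 0 lower in M0, 2 and 0 in M1, and 2 and 1 in M2. Chil3 is in this list and among the 6 M2 state markers, which all rose with interleukin-4. The M2 sum is therefore not one of monocyte genes alone. The part of these markers in the levels of Klf9 and Hr was not tested, and in bulk samples fewer cells of a type and less RNA per cell cannot be told apart.

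**Figure D1:**
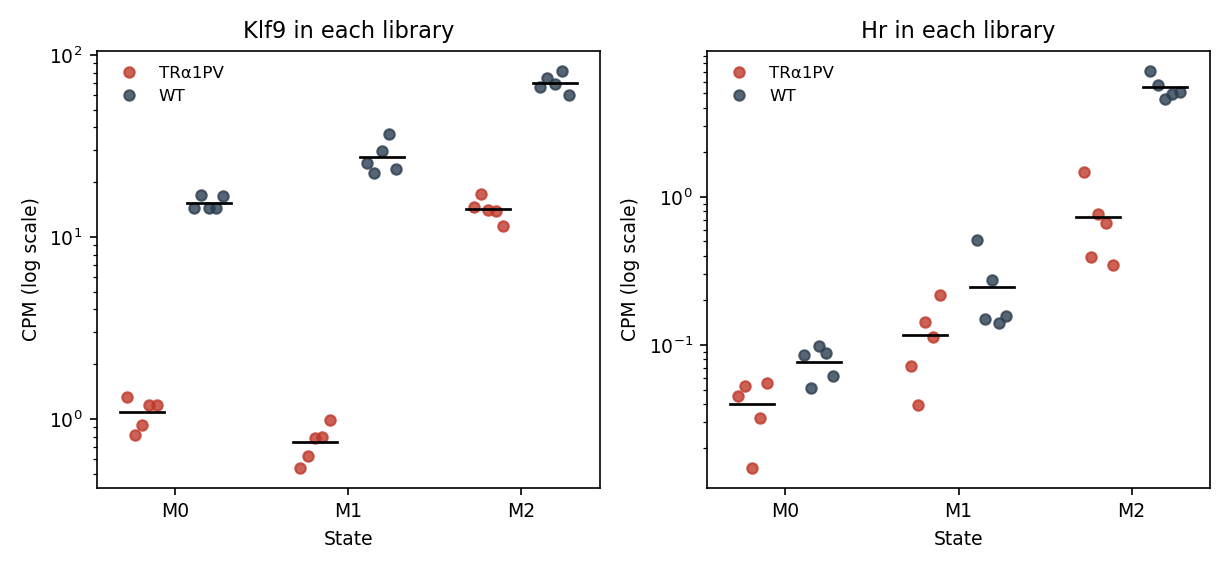
Level of Klf9 (left) and Hr (right) in each of the 30 libraries, in CPM on a log scale, by state and genotype; points are libraries and bars are group means. Klf9 separates the genotypes in all 3 states, whereas Hr does so in M2 alone, where the TRα1PV mean is 0.729 CPM and the WT mean 5.50 CPM.

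Hr was much scarcer than Klf9 and showed its genotype difference in M2. In M2 it stood at 1.47, 0.393, 0.770, 0.663 and 0.346 CPM in TRα1PV replicates 1 to 5, against 7.12, 5.72, 4.59, 4.98 and 5.10 CPM in the WT replicates. The highest TRα1PV library was still below the lowest WT library, and the means were 0.729 ± 0.453 CPM in TRα1PV and 5.50 ± 0.993 CPM in WT (SD, n = 5 each). The log2 fold change was -2.92 ± 0.27 (edgeR adjusted p = 3.17e-09), rank 35 by p, and the mean was 7.55-fold lower in TRα1PV. Same-numbered libraries differed by -3.88 to -2.27 on the log2 scale, lower in TRα1PV in 5 of 5 pairs. Of all tested genes, 6.96% were called lower in TRα1PV M2 and 7.87% lay lower there without overlap. The TRα1PV M2 libraries varied among themselves with a coefficient of variation of 62.1%, against 18.7% from counting, since replicate 1 held 54 Hr reads and replicates 2 and 5 held 14 each.

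In M0 and M1 the Hr reads were too few for a firm statement. The M0 libraries held 1 or 2 reads each in TRα1PV and 2 to 4 in WT, or 9 reads in all (95% exact interval 4.12 to 17.1) against 15 (8.4 to 24.7). The means of 0.0399 ± 0.0167 CPM in TRα1PV and 0.0768 ± 0.0198 CPM in WT overlapped in their libraries, and the log2 fold change of -1.02 ± 0.66 did not pass (adjusted p = 0.262). The M1 libraries held 1 to 7 reads in TRα1PV, 17 in all, and 4 to 15 in WT, 35 in all. The means were 0.117 ± 0.0682 CPM in TRα1PV and 0.247 ± 0.158 CPM in WT, again overlapping, with a log2 fold change of -1.03 ± 0.51 (adjusted p = 0.150). The ratio of reads in TRα1PV to WT, scaled for library size, was 0.465 in M0 (95% exact interval 0.179 to 1.13) and 0.481 in M1 (0.253 to 0.883). In M2 it was 0.129 (0.107 to 0.154), below both of these intervals, which cover counting error only. By edgeR the Hr genotype effect in M2 minus that in M0 did not pass (adjusted p = 0.334), and M1 minus M2 did (0.0303). What size of difference this depth could detect was not tested. Averaged over the states the log2 fold change of Hr was -1.66 ± 0.30 (adjusted p = 9.89e-05). Hr entered the tests through its reads in M2, where it is high in WT, so its differences from M2 were in part set by that filter.

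**Figure D2:**
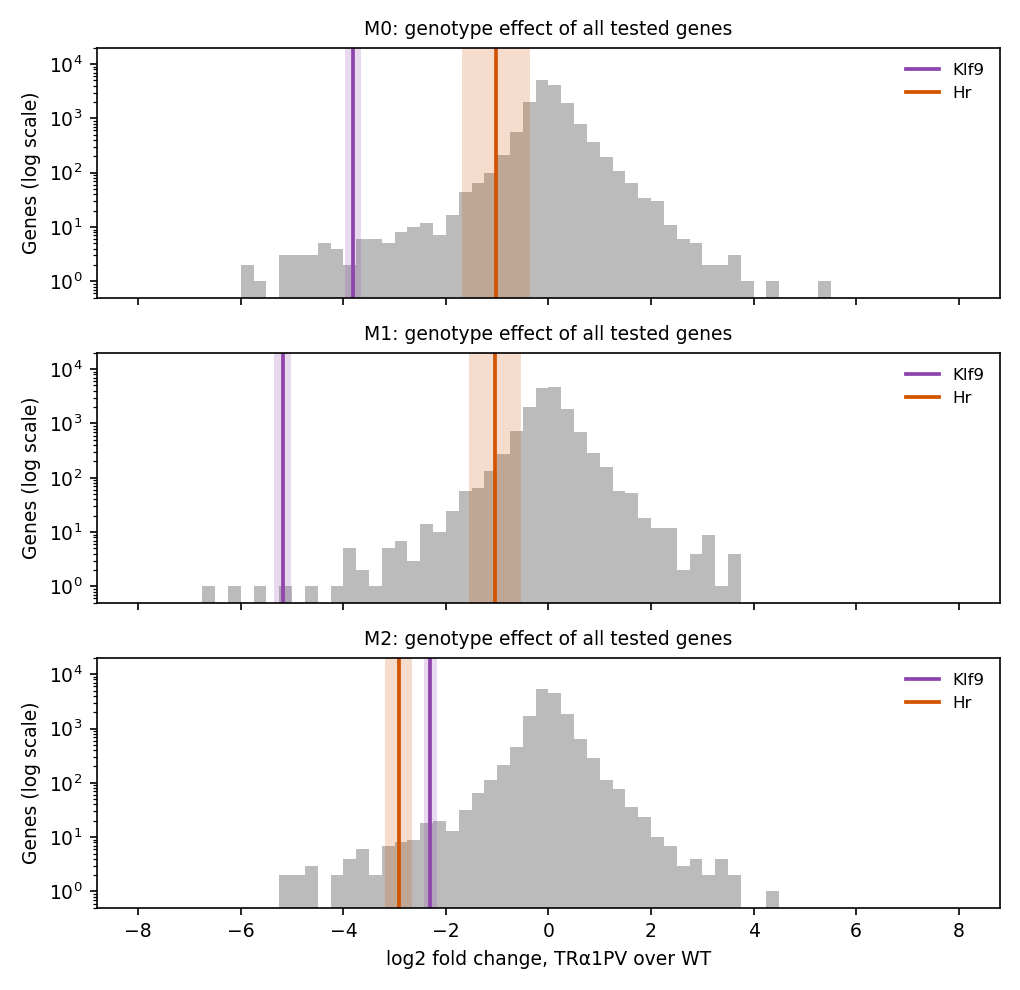
Distribution over the 15686 tested genes of the log2 fold change of TRα1PV over WT in M0, M1 and M2 (grey bars, number of genes on a log scale), with Klf9 and Hr as lines and 1 standard error as shading. Klf9 lies in the far lower tail in each state (-3.81, -5.19 and -2.31). Hr lies at -1.02 in M0 and -1.03 in M1, where 289 and 317 genes were as low, from few reads and not called. In M2 it lies at -2.92.

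Interleukin-4 raised both genes in both genotypes. In TRα1PV, Klf9 averaged 14.3 ± 2.05 CPM in M2 and 1.09 ± 0.213 CPM in M0, a log2 fold change of 3.70 ± 0.15 (edgeR adjusted p = 5.69e-19). In WT it averaged 70.4 ± 8.30 CPM in M2 and 15.4 ± 1.35 CPM in M0, a log2 fold change of 2.2 ± 0.12 (adjusted p = 1.88e-15). Same-numbered libraries gave 9.66-fold to 21.2-fold more Klf9 in M2 than in M0 in TRα1PV and 3.57-fold to 5.70-fold more in WT, so the ranges of the 2 genotypes did not meet. Hr rose by 4.19 ± 0.45 in TRα1PV (adjusted p = 2.42e-09) and by 6.09 ± 0.36 in WT (adjusted p = 7.94e-15), which by group means was 18.3-fold in TRα1PV and 71.6-fold in WT. Its same-numbered folds were 6.24 to 52.1 in TRα1PV and 46.8 to 112 in WT, and these ranges did meet. Of all tested genes, 28.3% were called higher in M2 than in M0 in TRα1PV and 25.2% in WT.

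LPS with interferon-γ moved Klf9 in opposite directions in the genotypes. In TRα1PV it averaged 0.747 ± 0.173 CPM in M1 and 1.09 ± 0.213 CPM in M0, a log2 fold change of -0.53 ± 0.21 (edgeR adjusted p = 0.0214). In WT it averaged 27.5 ± 5.83 CPM in M1 and 15.4 ± 1.35 CPM in M0, a log2 fold change of 0.84 ± 0.12 (adjusted p = 2.51e-07). Each of the 5 same-numbered folds was below 1 in TRα1PV, from 0.405 to 0.846, and above 1 in WT, from 1.32 to 2.55. The TRα1PV libraries of M1 and M0 overlapped, and that call was lost with limma-voom (adjusted p = 0.13). It was also lost without TRα1PV M0 replicate 1 (adjusted p = 0.0631) or 4 (0.0535) and without TRα1PV M1 replicate 1 (0.0748) or 2 (0.0519). Such stimulation moved most genes: 40.7% of tested genes were called lower in M1 in TRα1PV and 39.4% higher in M1 in WT.

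Hr rose with LPS and interferon-γ in both genotypes, from very few reads. The log2 fold change of M1 over M0 was 1.64 ± 0.65 in TRα1PV (edgeR adjusted p = 0.0223) and 1.65 ± 0.51 in WT (adjusted p = 0.00449). Same-numbered folds ran from 0.750 to 9.69 in TRα1PV, where replicate 2 was lower in M1, and from 1.60 to 6.03 in WT. Of all tested genes, 40.0% were called higher in M1 in TRα1PV. The libraries of M1 and M0 overlapped in TRα1PV and did not in WT, where 31.5% of tested genes lay higher in M1 without overlap. The TRα1PV call was lost without TRα1PV M0 replicate 3 (adjusted p = 0.0632) or TRα1PV M1 replicate 5 (adjusted p = 0.112). Set directly against M2, M1 had less of both genes: Klf9 changed by -4.23 ± 0.17 in TRα1PV and -1.35 ± 0.12 in WT (adjusted p = 4.59e-20 and 1.20e-11). For Hr these log2 fold changes were -2.55 ± 0.41 in TRα1PV and -4.44 ± 0.32 in WT (adjusted p = 1.79e-06 and 1.10e-13), where 41.0% of tested genes in TRα1PV and 39.6% in WT were called lower in M1.

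**Figure D3:**
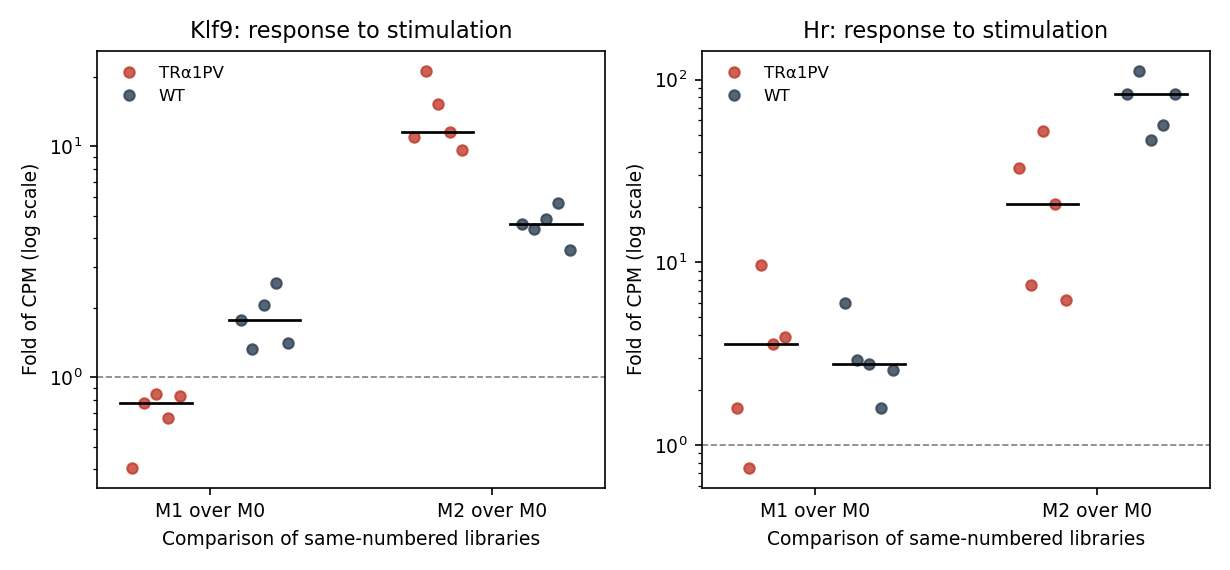
Fold of CPM in M1 over M0 and in M2 over M0 between same-numbered libraries, on a log scale, for Klf9 (left) and Hr (right); points are the 5 pairs of each genotype, bars their medians and the dashed line no change. Klf9 folds with M1 lie below 1 in TRα1PV and above 1 in WT, and with M2 they lie above 9 in TRα1PV and below 6 in WT.

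Whether the genotype difference depended on the state was tested as a difference of log2 fold changes. For Klf9 it was -1.37 ± 0.24 for M1 minus M0 (edgeR adjusted p = 1.69e-04), 1.51 ± 0.19 for M2 minus M0 (adjusted p = 4.86e-05) and -2.88 ± 0.21 for M1 minus M2 (adjusted p = 3.01e-10). The deficit of Klf9 in TRα1PV was thus widest in M1, intermediate in M0 and narrowest in M2. Of all tested genes 26.6% differed between M1 and M0 in this way, 2.16% between M2 and M0 and 21.8% between M1 and M2, and Klf9 ranked 3 by p in the second of these and 2 in the last.

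Hr did not follow this order. Its genotype difference between M1 and M0 differed by -0.01 (edgeR adjusted p = 0.987), and between M2 and M0 by -1.90 ± 0.83, which did not pass (adjusted p = 0.334, unadjusted p = 0.0299). Between M1 and M2 it differed by 1.89 ± 0.62 (adjusted p = 0.0303), with the larger deficit in M2. That last call rested on few reads and was lost with the libraries of the compared groups alone (adjusted p = 0.0501), without TRα1PV M1 replicate 3 (0.0698) or 5 (0.125) and without WT M1 replicate 4 (0.0534).

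Ordered by level, Klf9 was highest in WT M2, followed by WT M1, then WT M0 and TRα1PV M2, then TRα1PV M0 and last TRα1PV M1. The comparisons across both genotype and state were added after the levels had been seen. Most genes differ in them: 56.8% of tested genes were called between TRα1PV M2 and WT M0, 78.7% between TRα1PV M2 and WT M1 and 79.8% between TRα1PV M1 and WT M0. TRα1PV M2 and WT M0 did not differ beyond their spread, at 14.3 ± 2.05 CPM and 15.4 ± 1.35 CPM, with a log2 fold change of -0.11 ± 0.12 (edgeR adjusted p = 0.459). TRα1PV M2 lay below WT M1 in Klf9, by a log2 fold change of -0.95 ± 0.12 (adjusted p = 2.74e-08). Hr was highest in WT M2, followed by TRα1PV M2, WT M1, TRα1PV M1, WT M0 and TRα1PV M0. TRα1PV M2 held more Hr than WT M1, by 1.52 ± 0.36 (adjusted p = 3.47e-04), and than WT M0, by 3.17 ± 0.42 (adjusted p = 1.31e-07). TRα1PV M1 and WT M0 did not differ beyond their spread in Hr (0.61 ± 0.59, adjusted p = 0.343).

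Per kilobase of annotated exon, 4815 bases for Klf9 and 6919 for Hr, Klf9 was the more abundant gene in every group. In M2 its level was 2.96 ± 0.426 CPM per kilobase in TRα1PV and 14.6 ± 1.72 in WT, against 0.105 ± 0.0654 for Hr in TRα1PV and 0.795 ± 0.144 in WT. The log2 ratio of Klf9 to Hr, with 0.5 CPM added to each, was 3.64 ± 0.501 in TRα1PV M2 and 3.57 ± 0.305 in WT M2. The genotypes differed in this ratio by 0.07 in M2 (exact two-sided permutation p = 0.81, n = 5 each), and same-numbered libraries differed by -0.293 to 0.726. The sign of this difference depended on the pseudocount and on single libraries: it was -0.296 with 1 CPM added (adjusted p = 0.206), -0.0933 without TRα1PV M2 replicate 2 and -0.0349 without WT M2 replicate 1. With 0.1 CPM added it was 0.593 (adjusted p = 0.127), so the data do not show that the 2 genes fell equally, nor that they fell unequally. In M0 and M1 the ratio was lower in TRα1PV, with differences of -3.23 and -4.22 (exact permutation p = 0.00794 each, the smallest that 5 against 5 libraries allow, adjusted p = 0.0119). Hr lay below the pseudocount in nearly every library there, so the ratio in these states followed Klf9.

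The genes beside Klf9 and Hr on the chromosome gave values of their own. Trpm3, which encodes a cation channel, is the nearest tested gene upstream of Klf9 on the same strand. It had 1, 3 and 19 reads over the TRα1PV libraries of M0, M1 and M2, against 24, 51 and 64 reads in WT. The ratio of WT to TRα1PV, scaled for library size, was 31.0 in M0 (95% exact interval 5.05 to 1274), 17.2 in M1 (5.55 to 85.9) and 4.06 in M2 (2.40 to 7.17). Trpm3 was called lower in TRα1PV in each state (edgeR adjusted p = 6.92e-04, 1.28e-04 and 0.00425). It entered the tests through its reads in WT, where it is higher, so these calls were in part set by that filter. Differences of these ratios between states were not tested. Between Trpm3 and Klf9 lies 2410080I02Rik, a non-coding gene singled out after its values had been seen. It had no read in 15 TRα1PV libraries and 41 reads in WT, spread over 12 of 15 libraries, which is at least 16.2-fold lower in TRα1PV against a floor of 3 reads over the group. Its WT reads were 3 in M0, 26 in M1 and 12 in M2, too few for it to be tested.

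On the other side of Klf9, Smc5, which encodes a subunit of the SMC5/6 complex and lies on the opposite strand, did not pass between genotypes in any state. It averaged 67.9 ± 6.0 CPM in TRα1PV M0 and 62.8 ± 12.7 CPM in WT M0, with adjusted p of 0.473 in M0, 0.199 in M1 and 1 in M2. Mamdc2, which encodes a MAM domain protein and lies beyond Smc5, was looked at after its reads had been seen. It averaged 4.98 ± 1.29 CPM in TRα1PV M0 and 9.71 ± 2.00 CPM in WT M0, a log2 fold change of -0.96 ± 0.19 (edgeR adjusted p = 4.12e-04). It was also lower in M2 (-0.76 ± 0.22, adjusted p = 0.0188), a call lost without WT M2 replicate 1 (0.102) or TRα1PV M2 replicate 2 (0.0548), 3 (0.057) or 5 (0.0628), and did not pass in M1 (-0.27 ± 0.58, adjusted p = 0.786). The microRNA gene Mir1192 lies within Klf9 and had no reads. Of the neighbours of Hr, Reep4 was lower in TRα1PV M2 by a log2 fold change of -0.36 ± 0.09 (edgeR adjusted p = 0.0067) and did not pass in M0 (0.467) or M1 (0.671). Nudt18, on the other side, did not pass in any state (adjusted p = 0.167, 0.0924 and 0.228). Some further genes within 200 kb of Hr were looked at after their reads had been seen. Bmp1 had 14, 31 and 5 reads in TRα1PV M0, M1 and M2, against 44, 45 and 55 in WT. Lgi3 had 11 reads in TRα1PV and 28 in WT over all states. Piwil2 and Dmtn were among those that ran the other way, with 1103 and 891 reads in TRα1PV and 799 and 689 in WT. These reads are not scaled for library size, and test results of these genes are not given here. Whether reads of one gene reach into the next was not tested, and no label says whether the counting used strand.

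**Figure D4:**
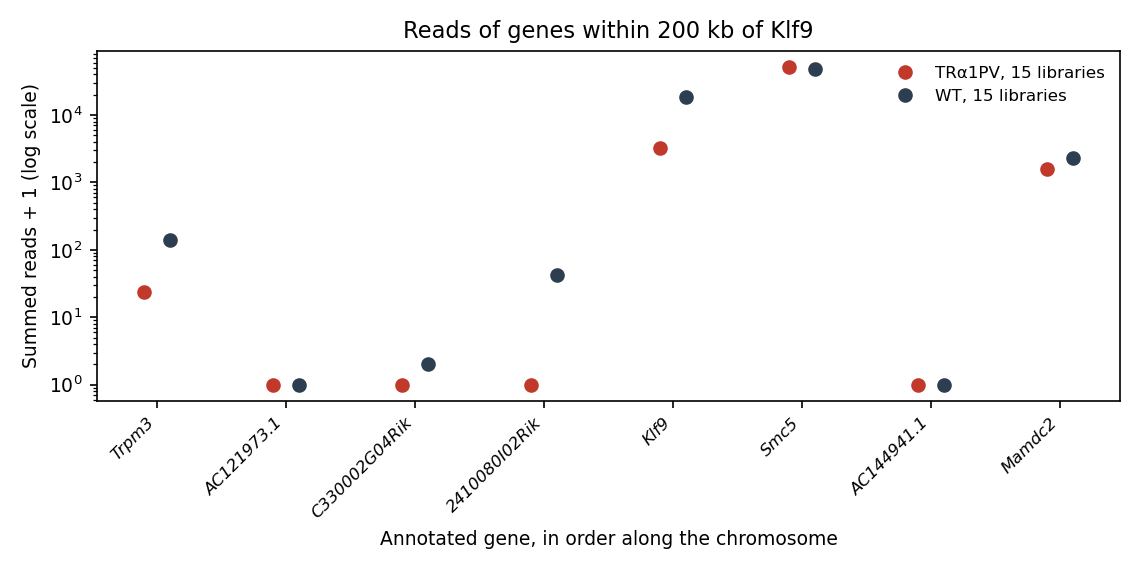
Reads summed over 15 TRα1PV and 15 WT libraries, plus 1 and on a log scale, for Klf9 and the annotated genes within 200 kb of it that are in the count files, in order along the chromosome. Trpm3, 2410080I02Rik and Klf9 have fewer reads in TRα1PV, and so does Mamdc2 on the other side (1594 in TRα1PV and 2304 in WT), while Smc5 has 52083 reads in TRα1PV and 48448 in WT.

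The receptor genes behind these targets differed between the genotypes as well. Thra, which encodes thyroid hormone receptor α, averaged 56.1 ± 4.03 CPM in TRα1PV M0 and 24.5 ± 1.91 CPM in WT M0. It was higher in TRα1PV in each state (log2 fold changes of 1.20 ± 0.10, 0.94 ± 0.10 and 1.37 ± 0.10). Thra is the mutated gene, and counts per gene separate neither mutant from normal transcripts nor 1 transcript form from another. Thrb, which encodes receptor β, was raised by interleukin-4, like both targets: it averaged 4.86 ± 0.641 CPM in TRα1PV M2 and 0.184 ± 0.11 CPM in TRα1PV M0, and 4.94 ± 1.24 CPM in WT M2 and 0.362 ± 0.0660 CPM in WT M0. Thrb itself did not pass between genotypes in M2 (-0.03 ± 0.19, edgeR adjusted p = 0.944). In M0 it was called lower in TRα1PV (-0.86 ± 0.31, adjusted p = 0.0418). That call was lost without the filter on low counts, with the compared groups alone, and without replicate 1, 2, 4 or 5 of TRα1PV M0 or replicate 1, 2, 3 or 4 of WT M0, and adjusted p ran from 0.00342 to 0.111 over the alternatives. Of the 19 tested genes of T3 reception, transport and deiodination, 7 were higher and 3 lower in TRα1PV in M0, 6 higher and 0 lower in M1, and 4 higher and 0 lower in M2. Of all tested genes, 12.0% were called higher and 14.0% lower in M0, 9.74% and 10.2% in M1, and 6.14% and 6.96% in M2. The median log2 fold change of this group was 0.10, 0.20 and 0.12, against -0.01, 0 and -0.01 over all tested genes. Slco2b1, an organic anion transporter gene, was higher in TRα1PV by 1.28 ± 0.13 in M0 and 1.73 ± 0.13 in M2, and Rxra, the partner receptor, by 0.75 ± 0.08 in M1 and 0.36 ± 0.08 in M2. Slc16a10, a transporter of aromatic amino acids and thyroid hormone, was lower in M0 by a log2 fold change of -0.36 ± 0.07.

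Other genes known to respond to T3, mostly from liver, heart and brain, in the main had smaller changes than Klf9. Differences between these genes and Klf9 were not tested. Beside Klf9 and Hr, 22 of the 36 further listed genes were tested. In TRα1PV, 2 were called higher and 11 lower in M0, 2 higher and 6 lower in M1, and 0 higher and 7 lower in M2. The shares of all tested genes called higher were 12.0%, 9.74% and 6.14%, and those called lower 14.0%, 10.2% and 6.96%. The median log2 fold change of the 22 genes was -0.31 in M0, 0.04 in M1 and -0.14 in M2; without Thrb, which had 2 and 1 reads in the genotypes in M1, the M1 median was -0.02. Dbp, a transcription factor gene of the clock output, fell furthest among the genes named by rule, to 12.1 ± 1.56 CPM in TRα1PV M0, against 40.1 ± 3.54 CPM in WT M0. Its log2 fold changes were -1.73 ± 0.13 in M0, -1.06 ± 0.16 in M1 and -1.38 ± 0.14 in M2, all past the test. Scd1, the stearoyl-CoA desaturase gene, singled out after its values had been seen, had the lowest value after Klf9 in M0, -3.61 ± 1.08 (edgeR adjusted p = 0.0142), a call lost with limma-voom (adjusted p = 0.138), and did not pass in M1 or M2. Gpd2, the mitochondrial glycerol-3-phosphate dehydrogenase gene, was lower in each state by smaller amounts (-0.58 ± 0.08, -0.40 ± 0.08 and -0.32 ± 0.08).

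Among the rest of the named T3-responsive genes, Bcl3 was called in both directions and the others in 1. Bcl3, an atypical IκB protein gene, was lower in TRα1PV in M0 (-0.66 ± 0.09) and M2 (-0.85 ± 0.09) and higher in M1 (0.32 ± 0.09, edgeR adjusted p = 0.0118), a call lost without WT M1 replicate 3 (adjusted p = 0.05). Cpt1a, whose enzyme admits fatty acids to mitochondria, was lower in M1 (-0.43 ± 0.07) and M2 (-0.31 ± 0.07), and Tbc1d1, a Rab GTPase-activating protein gene, in M0 (-0.52 ± 0.06) and M2 (-0.33 ± 0.06). Tbc1d1 was also called lower in M1 (-0.16 ± 0.06, edgeR adjusted p = 0.0449), a call lost with RLE size factors, with limma-voom, without the filter on low counts, and without any 1 of TRα1PV M1 replicates 1 to 4 or of WT M1 replicates 2, 3 and 5 (adjusted p up to 0.111). Idh3a, a subunit gene of isocitrate dehydrogenase, was lower in M1 (-0.53 ± 0.10) and in M0 (-0.30 ± 0.09, adjusted p = 0.0159). The M0 call was lost with the compared groups alone (adjusted p = 0.0717) and without WT M0 replicate 3 (0.0507) or TRα1PV M0 replicate 5 (0.0508).

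**Figure D5:**
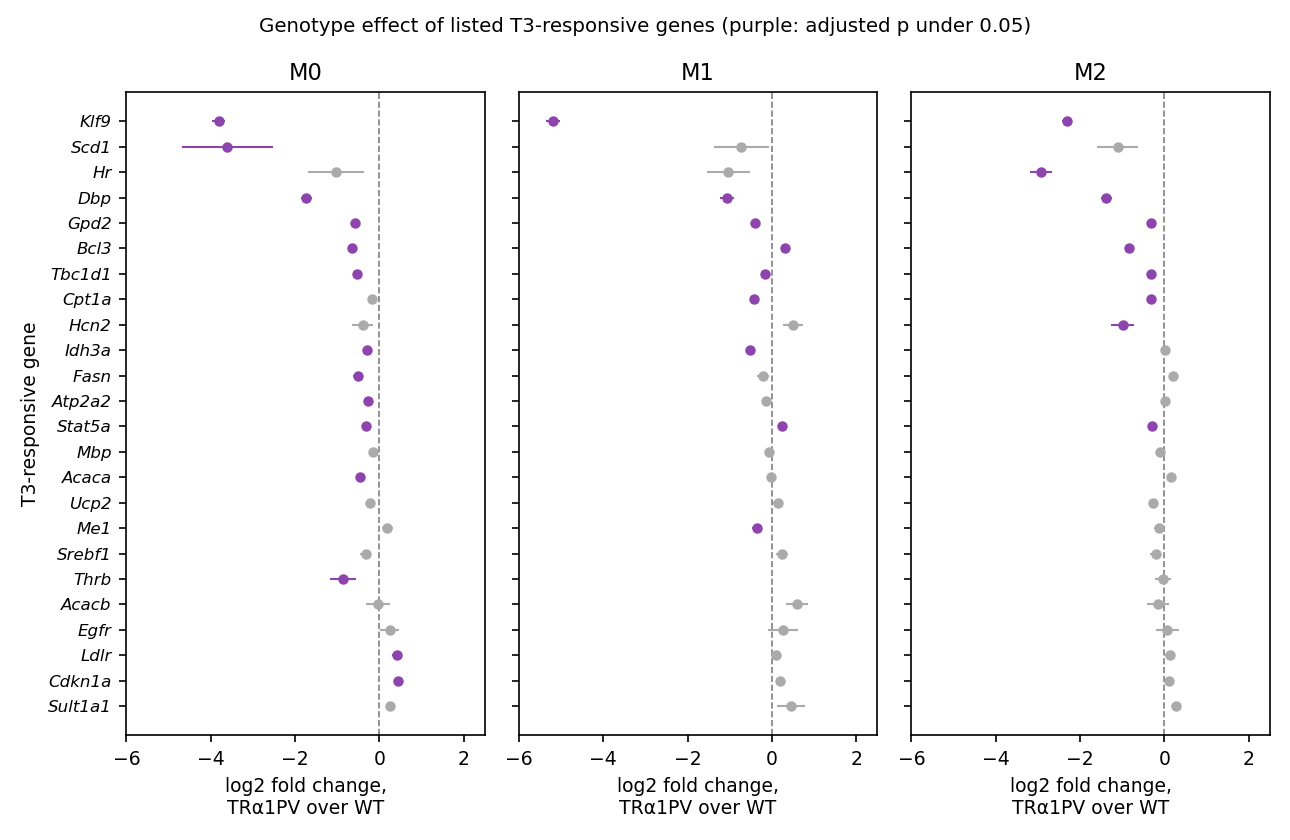
Log2 fold change of TRα1PV over WT (points, with 1 standard error) for Klf9, Hr and the other tested T3-responsive genes in M0, M1 and M2; purple points passed the test and grey ones did not, and Thrb in M1 is left out for too few reads. Klf9 lies left of all others in M0 and M1, Hr left of all others in M2, and Scd1 lies next to Klf9 in M0 with a wide error.

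Klf9 is also a glucocorticoid-responsive gene, and 17 others of that kind were tested. In TRα1PV, 1 was higher and 4 lower in M0, 6 higher and 2 lower in M1, and 0 higher and 3 lower in M2, with medians of -0.20, 0.11 and -0.09. The shares of all tested genes called higher and lower were 12.0% and 14.0% in M0, 9.74% and 10.2% in M1, and 6.14% and 6.96% in M2. Fkbp5, which encodes a co-chaperone of the glucocorticoid receptor, was lower in M0 (-0.90 ± 0.13), in M2 (-0.60 ± 0.12) and in M1 (-0.45 ± 0.13, edgeR adjusted p = 0.0151), where the call was lost with limma-voom (adjusted p = 0.051) and without WT M1 replicate 4 (0.0502). Zbtb16, a zinc finger factor gene, was lower in M0 (-1.0 ± 0.27). In M1, where Klf9 was 36.9-fold lower, the phosphatase gene Dusp1 (0.93 ± 0.13), the mRNA decay factor gene Zfp36 (0.65 ± 0.10) and the metallothionein genes Mt1 (0.88 ± 0.14) and Mt2 (1.13 ± 0.22) were higher in TRα1PV. In M0, Mt1 was lower (-0.47 ± 0.14, adjusted p = 0.0116).

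Relatives and partners of the 2 proteins were described in the same way. Of 9 tested genes of the Klf9 subgroup of Krüppel-like factors and its SIN3 corepressor, 3 were higher and 1 lower in TRα1PV in M0, 0 higher and 1 lower in M1, and 0 higher and 1 lower in M2. The lower gene was Klf13 each time, a close relative of Klf9, at -0.93 ± 0.08 in M0, -0.44 ± 0.08 in M1 and -0.65 ± 0.08 in M2. It was far more abundant than Klf9, at 83.5 ± 7.35 CPM in TRα1PV M0 and 159 ± 14.6 CPM in WT M0. Sap30, a SIN3 complex gene, and Klf11 were higher in M0 (0.36 ± 0.08 and 0.32 ± 0.09). Of 17 tested partners and relatives of Hr, 2 were higher and 3 lower in M0, 3 higher and 0 lower in M1, and 2 higher and 1 lower in M2. Over all tested genes 12.0% were called higher and 14.0% lower in M0, 9.74% and 10.2% in M1, and 6.14% and 6.96% in M2, so the M0 counts of the Hr partners lay near the background. Vdr, the vitamin D receptor gene whose protein hairless represses, was lower in M0 (-1.06 ± 0.25) and M2 (-1.05 ± 0.18) and did not pass in M1 (0.03 ± 0.15, edgeR adjusted p = 0.926). Hdac5, a histone deacetylase gene, was higher in M1 (0.43 ± 0.12).

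Likeness of pattern was measured as the root mean square difference between the 6 group means of log2 CPM, after each gene was centred on its own mean. By this measure the 5 genes most like Hr among 11766 were Dcstamp, needed for macrophage fusion (0.648), Itgax, the CD11c gene (0.763), Ceacam19 (0.864), Angptl2, a secreted angiopoietin-like factor gene (0.951), and Gda, the guanine deaminase gene (0.966), where the median over all was 2.04. Each of them rose with interleukin-4 in both genotypes, Dcstamp by 3.45 in TRα1PV and 3.92 in WT. They did not share the size of the genotype difference of Hr in M2, -2.92. In the same order theirs were -0.85, -0.87, -0.13, 0.06 and -0.02, and only Dcstamp and Itgax passed. The Hr means in M0 and M1 rest on very few reads. Klf9 had no such close match. Its 5 nearest genes among 11765 were Mmp8, a collagenase gene (1.29), Prkaa2, a catalytic subunit gene of AMP-activated kinase (1.47), Mmp12, the macrophage elastase gene (1.66), Gdf3, a TGF-β family ligand gene (1.66), and Dcstamp (1.70), where the median was 2.40.

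The nearest genes of Klf9 shared parts of its pattern. Mmp8 was lower in TRα1PV by a log2 fold change of -4.48 in M0, -3.01 in M1 and -3.24 in M2, all past the test, but its change with interleukin-4 in WT was -0.28. Prkaa2 rose with interleukin-4 by 3.39 in TRα1PV and 2.77 in WT, and between genotypes it passed in M1 (-1.86) and not in M0 or M2. Klf9 and Hr were 1.66 apart. With all tested genes ranked, Hr was at rank 17 of 15685 for Klf9, whereas Klf9 was at rank 803 for Hr. This likeness rests on 6 groups and is a description.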

How the data were processed

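PolyA-selected RNA libraries were made with the KAPA mRNA HyperPrep kit, per the labels' protocols. The deposited values are whole-number read counts per Ensembl gene, 1 file per library, not normalized. The submitters' processing notes name Trimmomatic 0.39, HISAT2 2.2.1, HTSeq 1.99.2, FastQC 0.11.9, Cufflinks, edgeR, limma, R 4.3.2 and the GRCm39 build; annotation release and strand setting are not given in the sources used. Gene symbols, exon lengths and neighbours came from an annotation of GRCm38, which named 52081 of the 55414 genes, so no gene coordinates are given; the Klf9 promoter is RefSeq's on GRCm38.p6.

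Counts were fitted with edgeR 4.0.16 in R 4.3.3 (filterByExpr with minimum count 10 and minimum total 15, TMM factors, 1 quasi-likelihood fit of all 30 libraries with 24 residual degrees of freedom). The 5 totals of reads given to no gene were left out; reads in no feature were 8.66 to 14.4% per library. Tests were two-sided with Benjamini-Hochberg adjustment over the 15686 genes tested and a threshold of 0.05. Standard errors were obtained by dividing the size of a log2 fold change by √F and are approximate. The ratio of Klf9 to Hr was tested by exact permutation over 252 arrangements, adjusted over 3 states. The fits were checked on simulated data. The members, the gene lists (written from general knowledge) and the tests were chosen with earlier results of these data known. Named were Klf9, Hr, Thra and Thrb, up to 4 called members per list and comparison by smallest p (a part of these is given as counts), the 5 genes of most alike pattern (mean log2 CPM 0 or more), and the nearest tested and overlapping genes.

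Alternatives were RLE size factors, DESeq2 1.42.0, limma-voom 3.58.1, no filter, only the compared groups, a replicate block and leaving out each library. Replicate numbers stand under the labels' tag batch and were taken as pairs for that reason. Deviations of same-numbered libraries from their group means correlated by -0.37 to 0.26 between genotypes in M0, by -0.17 to 0.17 in M1 and by -0.02 to 0.21 in M2. Within a genotype, those of M1 and M0 correlated by -0.08 to 0.21 in TRα1PV and by -0.10 to 0.23 in WT. Those of M2 and M0 correlated by -0.04 to 0.33 in TRα1PV and by -0.24 to 0.32 in WT.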

Additional observations from a re-analysis of the deposited data

Results flagged for a closer look

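The genotype effect on Klf9 differed between states by the test of the difference itself, with log2 differences of -1.37 (M1 minus M0), 1.51 (M2 minus M0) and -2.88 (M1 minus M2), all past edgeR's adjusted threshold and in every alternative run. With M1 stimulation, every same-numbered Klf9 pair fell in TRα1PV and every pair rose in WT. The TRα1PV libraries of M1 and M0 overlapped, however, and the call of lower Klf9 in TRα1PV M1 was lost in 5 of the alternatives. The genotype effect on Hr differed between M1 and M2 by 1.89 (edgeR adjusted p = 0.0303), on 17 reads in TRα1PV M1 and 35 in WT M1, and the alternatives gave adjusted p from 0.00444 to 0.125.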

How the results depend on the processing

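Of 32 results on Klf9 and Hr, 28 kept their direction and their side of the threshold in every alternative, among them all genotype differences within a state, those averaged over states, the interleukin-4 responses and the state dependence of Klf9; the replicate block changed no call of the edgeR fit. With the ratio paired by replicate number, an exact sign-flip permutation test of 5 pairs cannot go below p = 0.0625, so the ratio differences of -3.23 in M0 and -4.22 in M1 no longer passed (adjusted exact permutation p = 0.0938). The difference of the Hr genotype effect between M1 and M0, near 0, changed sign with the replicate block (0.055), limma-voom (0.0469) and DESeq2 (0.0303), and ranged from -0.381 to 0.442 with single libraries left out. That between M1 and M2 did not pass with only the compared groups (1.90) and ranged from 1.52 to 2.34 with single libraries left out. The change of Klf9 with M1 in TRα1PV did not pass with limma-voom (-0.52) and ranged from -0.66 to -0.43, and that of Hr from 1.27 to 1.84. The M2 ratio difference reversed with a pseudocount of 1 CPM (-0.296) and ranged from -0.0933 to 0.252. The cause of these changes was not tested, and leaving out a library also lowers the number of libraries.

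The count of genes called between genotypes in M0 was 4072, against 2458 with only the compared groups and 6143 without WT M0 replicate 2. In M2 it was 2055, against 4008 with only the compared groups, 1353 without WT M2 replicate 1 and 1270 without WT M2 replicate 5. The count for the difference of genotype effects between M2 and M0 was 339, against 525 with DESeq2 and 511 without WT M0 replicate 2. Of 143 results on other named genes, 127 were unaltered in call and direction, 16 lost the call in at least 1 alternative and 0 reversed. Depth limits Hr in M0 and M1, at 9 to 35 reads per group.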
